A study of Mus musculus with 22 samples.

Results

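The 34 genes described here encode nucleolar proteins, parts and cofactors of RNA polymerase I, and assembly factors of the small and large ribosomal subunits. They were chosen by name, by a rule that uses no measured value, from a list drawn up with earlier results of these data known, and all 34 were present among the 43672 gene symbols of the count table. Ribosome biogenesis begins in the nucleolus, where RNA polymerase I transcribes the ribosomal RNA precursor with the help of initiation and chromatin factors. Small nucleolar RNA-protein particles (snoRNPs) then modify the precursor: box C/D particles methylate it and box H/ACA particles convert uridines to pseudouridines. Assembly factors bind the precursor in a set order, cut it and fold it into the subunits that leave for the cytoplasm. Embryonic stem cells divide fast and are known for a high output of ribosomes.

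RNA was sequenced from male mouse embryonic stem cells (ESCs) of 129 background, derived from the inner cell mass and grown without feeder cells in serum and LIF, a cytokine that keeps ESCs undifferentiated. The 22 libraries, made from total RNA depleted of ribosomal RNA, fall into 3 sets that share no library. The first set holds Ythdc1 conditional knockout (cKO) ESCs treated with 4OHT (4 libraries) or with the solvent DMSO (4 libraries); Ythdc1 is the nuclear reader of m6A, a methyl mark on RNA. The second holds Mettl3 knockout (KO) ESCs and wild-type (WT) ESCs, 2 libraries each; Mettl3 is the enzyme that writes m6A. The last set holds Ythdc1 cKO ESCs with 4OHT or DMSO on 3 backgrounds: Dux-KO (2 and 2 libraries), Dux-Het (2 and 2) and cells with no Dux genotype in their name (1 and 1), where Dux is a transcription factor of the 2-cell embryo. All groups of the first and last sets carry the conditional Ythdc1 allele, and no group had 4OHT without it, so the effects of 4OHT and of the loss of Ythdc1 cannot be told apart. The first set came from 2 ESC lines that its columns do not name, and no label says that replicates are separate cultures, so each p-value rests on a spread between libraries that may be technical. In bulk RNA, a lower level per cell and fewer cells with a high level cannot be told apart.

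Total counts per library ranged between 24955414 and 54139132, and the least counted of the 34 genes had at least 400 counts in every library. Ythdc1 itself was at 48.98 to 62.78 CPM (counts scaled to the size of the library) in 4OHT libraries of the first set and at 70.82 to 80.16 CPM in DMSO libraries, a log2 fold change of -0.41 ± 0.081. In the Dux set the difference for Ythdc1 did not pass the test (pooled log2 fold change -0.21 ± 0.12, adjusted p = 0.203). Mettl3 was at 14.52 and 28.42 CPM in the KO libraries, against 28.98 and 29.91 CPM in WT libraries (log2 fold change -0.44 ± 0.24, adjusted p = 0.207), so 1 KO library lay next to WT for this gene; a count over the whole gene does not check a deletion of part of it. Ythdc1 was higher in Mettl3 KO than in WT (0.82 ± 0.091, adjusted p = 0.000235). All 10 ESC markers examined (Pou5f1, Sox2, Nanog and others) were detected in each group. Their summed level was 1540 to 1840 CPM with 4OHT and 2120 to 2490 CPM with DMSO in the Ythdc1 set, and 1560 to 1600 CPM in Mettl3 KO and 1910 CPM in both WT libraries. In Dux-KO cells it was 1750 to 1880 CPM with 4OHT and 2490 to 2960 CPM with DMSO, and in Dux-Het cells 1750 to 2030 CPM with 4OHT and 2670 to 2900 CPM with DMSO. The 9 markers of 2-cell-like cells summed to 81.7 to 169 CPM with 4OHT and 7.13 to 27.3 CPM with DMSO in the Ythdc1 set, and to 95.3 to 103 CPM in Mettl3 KO and 0.902 to 1.35 CPM in WT. In Dux-KO cells this sum was 0.0596 to 0.0902 CPM with 4OHT and 0.0691 to 0.0849 CPM with DMSO. Repeat families took 26.9 to 28.4% of counts with 4OHT and 21.3 to 23.8% with DMSO in the Ythdc1 set, and 26.9 to 28.8% in Mettl3 KO and 26.8 to 27.1% in WT. Their share was 24.0 to 24.4% with 4OHT and 16.4 to 20.8% with DMSO in Dux-KO cells, and 24.4 to 25% with 4OHT and 18.5 to 21.0% with DMSO in Dux-Het cells. DMSO replicate 1 of the Dux-KO cells had the lowest share of repeats of all 22 libraries (16.4%) and the lowest share of mitochondrial counts (0.324%), and it differed from its replicate more than any other pair of replicates did (chi-square per degree of freedom 99.07, against 3.741 to 46.41 for the other pairs). The part of these differences in the results below was not tested.

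Levels are comparable between genes only per length. In DMSO libraries of the Ythdc1 set, Npm1 (nucleophosmin, an abundant nucleolar chaperone) stood highest at 352.7 CPM per kilobase of exon. Nop56 and Fbl, core proteins of box C/D snoRNPs, followed at 111.7 and 102.0 CPM per kilobase, then Mybbp1a at 91.35 and Gnl3 (nucleostemin, a nucleolar GTPase of stem cells) at 70.65. At the low end stood Bysl at 13.22, Rrs1 at 9.024 and Wdr12 at 3.734 CPM per kilobase, the last over an annotated exon length of 10613 bases. Of the 33 neighbouring pairs in this order, 29 overlapped between libraries; the 4 that did not were Npm1 over Nop56, Mybbp1a over Gnl3, Bysl over Rrs1, and Rrs1 over Wdr12. Npm1 was the highest and Wdr12 the lowest of the 34 in all 10 groups. Each gene was divided by the same exon length in every group, so part of the likeness in order between groups is built in. Spearman's rho of the order with that in the Ythdc1 set's DMSO libraries was 0.875 in Mettl3 KO, the lowest of the other groups, and 0.963 in Mettl3 WT, the highest (over 34 genes, given as a description).

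Start-site sequences from RefSeq (GRCm38.p6) were at hand for 28 of the 34 genes; Tcof1, Fbl, Rrp12, Npm1, Bop1 and Rrs1 had none. The 150 bases before the start are printed for 6 genes on which the results turn: 3 that were lower in both sets of 4OHT libraries (Nolc1, Noc4l, Ddx21), 2 RNA polymerase I genes that moved differently (Rrn3, Polr1b), and Nop2, which holds both motifs. Each runs 5′ to 3′ on the strand of its gene, and capitals mark every CACGTG (the E-box bound by Myc and Max) and every CCGGAAG (a core bound by ETS-family factors), on either strand.
Nolc1, chr19:46075697-46075846, plus strand: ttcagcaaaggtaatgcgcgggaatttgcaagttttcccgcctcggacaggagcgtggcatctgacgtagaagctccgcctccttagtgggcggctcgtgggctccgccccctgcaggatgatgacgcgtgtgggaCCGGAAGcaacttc
Noc4l, chr5:110653383-110653532, minus strand: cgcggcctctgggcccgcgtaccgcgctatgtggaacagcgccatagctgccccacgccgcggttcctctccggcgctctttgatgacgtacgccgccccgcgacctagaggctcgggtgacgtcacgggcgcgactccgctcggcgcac
Ddx21, chr10:62602299-62602448, minus strand: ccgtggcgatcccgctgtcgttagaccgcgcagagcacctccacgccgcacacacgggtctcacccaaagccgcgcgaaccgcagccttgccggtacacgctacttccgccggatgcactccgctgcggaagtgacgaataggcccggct
Rrn3, chr16:13780549-13780698, plus strand: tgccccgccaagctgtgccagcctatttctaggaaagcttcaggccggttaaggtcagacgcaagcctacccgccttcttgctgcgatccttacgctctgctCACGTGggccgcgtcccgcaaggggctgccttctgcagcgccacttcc
Polr1b, chr2:129100846-129100995, plus strand: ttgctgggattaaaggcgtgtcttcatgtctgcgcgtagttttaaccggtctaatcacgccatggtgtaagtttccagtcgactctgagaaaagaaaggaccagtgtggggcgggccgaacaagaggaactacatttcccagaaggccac
Nop2, chr6:125131733-125131882, plus strand: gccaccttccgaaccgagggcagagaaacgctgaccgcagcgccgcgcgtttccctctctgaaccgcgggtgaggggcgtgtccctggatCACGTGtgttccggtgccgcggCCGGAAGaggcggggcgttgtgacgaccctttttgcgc

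Within 250 bases before the start, on both strands, CACGTG was found in 2 of the 28 genes (7.1%) and in 6.02% of 32851 promoters of the same length. In Rrn3 its first base lay 48 and 215 bases upstream of the start, and in Nop2 60 bases upstream. CCGGAAG was found in 6 of 28 genes (21.4%; Gar1, Nhp2, Nolc1, Heatr1, Ltv1 and Nop2) and in 6.91% of all promoters. GGGCGG was found in 17 of 28 (60.7%) against 32.7% of all promoters, CCAAT in 6 (21.4%) against 33.8%, and TATAAA in 2 (Dkc1 and Pes1) against 12.4%. AAGATGG was found in none of the 28 against 4.49% of all promoters, the palindrome bound by Banp in none against 0.39%, and the site of the factor Nrf1 in Rrp9 alone against 3.74%. The 28 windows had a median GC content of 57.4%, against 52.4% for all promoters. These matches describe letters, not binding.

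In the Ythdc1 set, 14 of the 34 genes were lower with 4OHT and 3 were higher (Rrn3, Nop58 and Nob1), by edgeR's quasi-likelihood test at an adjusted p under 0.05 over all 24385 entries tested. Among all entries, 21.4% were lower and 23.7% higher by the same rule, 45.1% in either direction, so the 17 of 34 called in either direction is near the background. At an unadjusted p under 0.05, 20 of the 34 passed, against 51.7% of all entries. The genes that fell most were Noc4l, Tcof1, Nolc1 and Noc2l, by 1.34 to 1.64-fold. The median log2 fold change was -0.158 over the 34 genes and 0.0158 over all entries. The summed level of the 34 genes was 3825 to 4366 CPM with 4OHT and 4291 to 5102 CPM with DMSO, and these ranges overlapped. Every 4OHT library lay below every DMSO library for 10 genes and above for 2, against 20.7% and 20.9% of all entries.

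**Figure D1:**
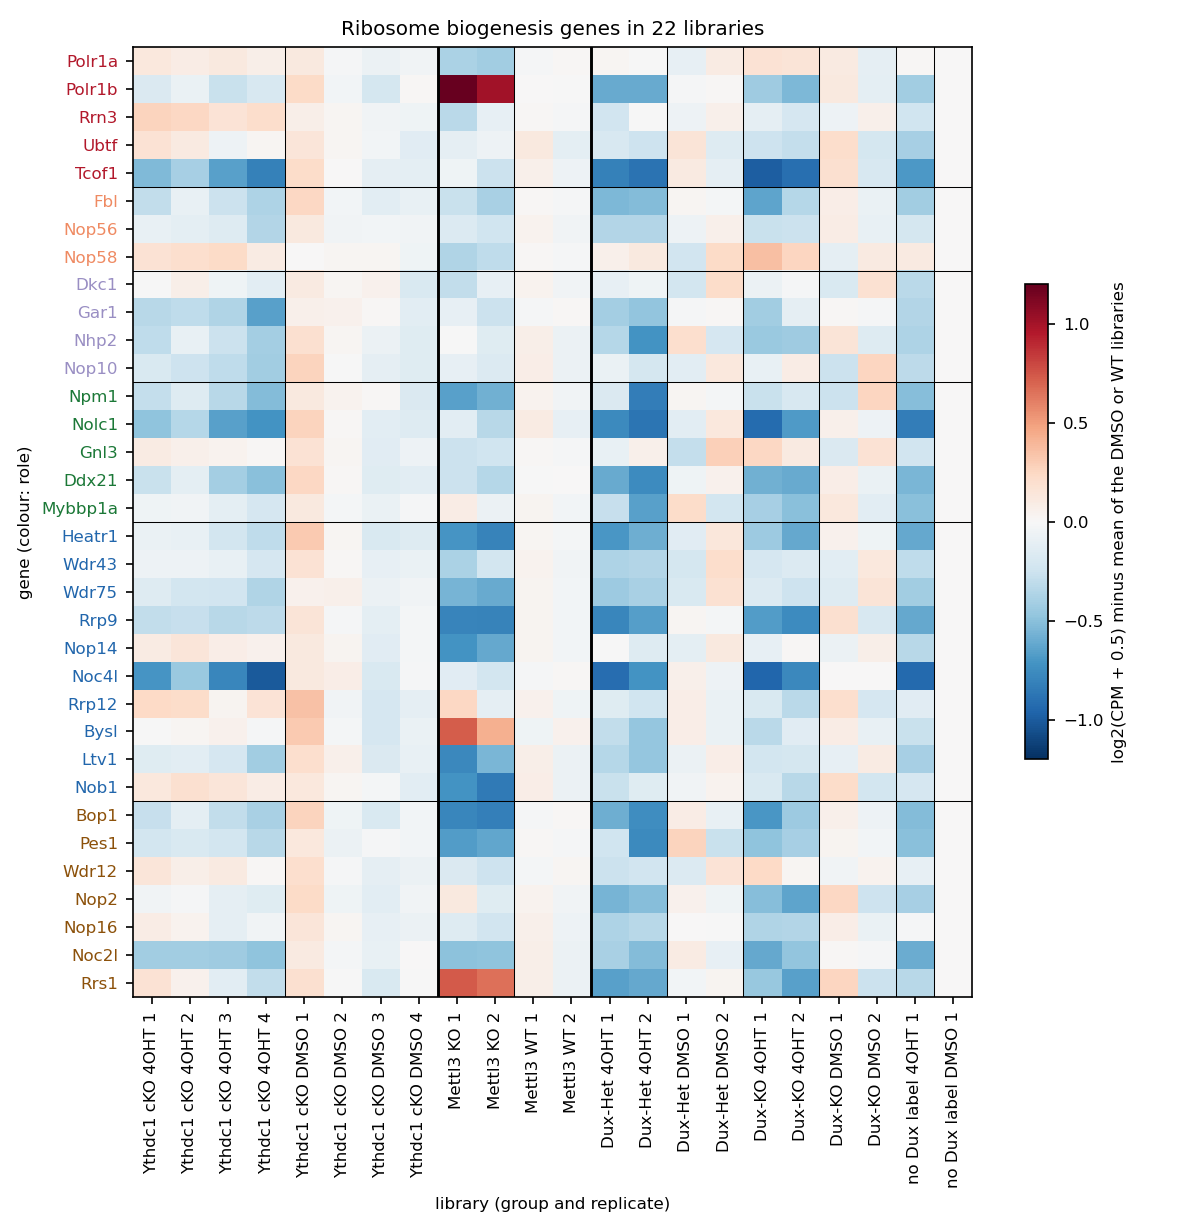
Level of each of the 34 genes (rows, coloured by role) in each of the 22 libraries (columns), as log2(CPM + 0.5) minus the mean of the DMSO or WT libraries of the same set and background. Tcof1, Nolc1 and Noc4l are low in every 4OHT library, whereas Polr1b, Bysl and Rrs1 are high in both Mettl3 KO libraries and in no 4OHT library of the Dux set.

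By role, RNA polymerase I genes split. Tcof1, which encodes treacle, a nucleolar cofactor of ribosomal DNA transcription, was at 121.9, 134.4, 112.0 and 100.7 CPM in the 4 4OHT libraries, against 205.7, 177.5, 163.7 and 163.3 CPM in DMSO libraries. The groups did not overlap, and the log2 fold change was -0.58 ± 0.085 (adjusted p = 4.14e-05). Rrn3, the initiation factor that recruits RNA polymerase I, was at 212.1, 210.0, 197.4 and 204.1 CPM with 4OHT and at 185.3, 178.8, 170.7 and 170.4 CPM with DMSO. Every 4OHT library was above every DMSO library, and the log2 fold change was 0.25 ± 0.052 (adjusted p = 0.0011). For the polymerase subunits Polr1a and Polr1b and for Ubtf, which binds ribosomal DNA, the log2 fold changes of 0.12, -0.16 and 0.083 did not pass the test.

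Of the box C/D core, Fbl, the methyltransferase fibrillarin, fell (-0.24 ± 0.079) and Nop58 rose. Nop58 was at 154.4, 157.3, 160.2 and 146.4 CPM with 4OHT and at 137.7, 139.3, 138.8 and 132.3 CPM with DMSO, with no overlap (0.20 ± 0.052, adjusted p = 0.00549). Of the box H/ACA core, Gar1, Nop10 and Nhp2 fell and the pseudouridine synthase Dkc1 stood at a log2 fold change of -0.01 ± 0.066. Gar1 was at 21.34, 21.74, 20.89 and 17.03 CPM with 4OHT, against 28.19, 27.96, 27.29 and 24.69 CPM with DMSO, and the groups did not overlap (-0.39 ± 0.088, adjusted p = 0.00158).

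Among other nucleolar proteins, Nolc1, a chaperone of snoRNPs, fell most. It was at 96.77, 106.9, 86.12 and 82.56 CPM with 4OHT and at 163.0, 137.4, 124.1 and 122.2 CPM with DMSO (-0.53 ± 0.091, adjusted p = 0.000156). Npm1 fell by 0.30 on the log2 scale, with 1 4OHT library inside the DMSO range, and the RNA helicase Ddx21 fell by the same amount, again with overlap. Gnl3 (0.07) and Mybbp1a (-0.08) did not pass the test.

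Of the 10 small-subunit factors, Noc4l, Rrp9 and Wdr75 fell and Nob1 rose. Noc4l, a partner of Nop14 in early assembly, had the largest change of the 34: it was at 24.31, 29.26, 23.02 and 19.58 CPM with 4OHT, against 43.54, 42.23, 35.26 and 39.54 CPM with DMSO (-0.72 ± 0.10, adjusted p = 3.32e-05). Nob1, the nuclease that trims the small-subunit rRNA, was at 62.12, 65.14, 63.0 and 60.55 CPM with 4OHT and at 61.92, 57.84, 55.77 and 52.11 CPM with DMSO. These ranges overlapped, the log2 fold change was 0.16 ± 0.063 (adjusted p = 0.0477), and the call was lost in 6 of the 8 fits that left out 1 library.

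Of the 7 large-subunit factors, Noc2l, Pes1 and Bop1 fell. Noc2l, an early assembly factor that is also a repressor of histone acetylation, was at 102.7, 103.1, 102.2 and 98.44 CPM with 4OHT and at 147.8, 135.7, 129.6 and 137.7 CPM with DMSO (-0.42 ± 0.054, adjusted p = 1.07e-05). Its exons overlap those of the antisense gene Samd11 over 598 bases. Samd11 also fell (-0.26), at 10.36 CPM with 4OHT and 12.58 CPM with DMSO on average, and since no source used here says whether counting used strand, reads of the pair may not be told apart. Pes1 and Bop1 encode partners of the complex that also holds Wdr12; Wdr12 stood at a log2 fold change of 0.10 and did not pass.

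The DMSO library of replicate 1 stood apart, and not for this pathway alone. Over entries with at least 20 counts in a pair, its chi-square per degree of freedom against the other DMSO replicates was 30.97 to 37.05. Among those other replicates it was 8.441 to 10.82. This library was the highest of its group for 32 of the 34 genes. It was the highest for 35.4% of the 12454 entries with a mean count of at least 200. Without it, 10 genes were lower and 5 higher with 4OHT, and the median log2 fold change of the 34 was -0.0693. The 4OHT library of replicate 4 was the lowest of its group for 28 of 34 genes. How often it was the lowest over all entries was not counted, so this is not read as a trait of the pathway. Without this library 10 genes were lower and 3 higher. Over all entries, 9910 to 10931 were called in the fits that left out 1 library, against 11008 with every library. The counts of genes in these fits are therefore not read as a trait of the pathway. Of the 17 genes called, 12 kept their call whichever single library was left out: Noc4l, Tcof1, Nolc1, Noc2l, Gar1, Rrp9, Npm1, Ddx21, Wdr75, Pes1, Rrn3 and Nop58.

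The Dux set gave the same treatment in other libraries. Averaged over the 3 backgrounds, with background as a term in the fit, 24 of the 34 genes were lower with 4OHT and none was higher, against 16.2% lower and 20.2% higher among all 29322 entries. In either direction 36.4% of all entries were called. At an unadjusted p under 0.05, 25 genes passed, against 45.2% of entries, and DESeq2 called 24, none of them higher. The share of all entries called by DESeq2 is not set beside its count, which is not read as a trait of the pathway. The median log2 fold change was -0.32 over the 34 genes and 0.0523 over all entries. The summed level was 4529 to 5206 CPM with 4OHT and 6470 to 6499 CPM with DMSO in Dux-Het cells, and 5073 to 5076 CPM with 4OHT and 6319 to 6366 CPM with DMSO in Dux-KO cells, so treated and control libraries were fully apart.

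The largest falls in the pooled Dux set were in Noc4l (-0.84 ± 0.080, adjusted p = 6.09e-06), Tcof1 (-0.84 ± 0.090), Nolc1 (-0.79 ± 0.083) and Rrp9 (-0.68 ± 0.088), of which the first 3 also led in the Ythdc1 set. Noc4l was at 24.62 and 28.42 CPM in Dux-Het 4OHT libraries, against 48.92 and 45.04 CPM in Dux-Het DMSO libraries. In Dux-KO cells it was at 24.45 and 27.69 CPM with 4OHT, against 47.73 CPM in both DMSO libraries. All 4OHT libraries lay near the same level for this gene on both backgrounds, below every control. Tcof1 was at 106.7 and 101.0 CPM with 4OHT and 202.0 and 173.6 CPM with DMSO in Dux-Het cells. It was at 98.27 and 104.4 CPM with 4OHT and 223.1 and 171.7 CPM with DMSO in Dux-KO cells. Again no treated library reached a control library. Nolc1 was at 94.78 and 87.52 CPM with 4OHT and 148.0 and 175.6 CPM with DMSO in Dux-Het cells, and at 78.21 and 93.16 CPM with 4OHT and 156.0 and 142.5 CPM with DMSO in Dux-KO cells. Rrp9, which binds the snoRNA at the heart of the small-subunit processome, was at 35.22 and 38.37 CPM with 4OHT and 61.65 and 59.94 CPM with DMSO in Dux-Het cells, and at 37.77 and 35.57 CPM with 4OHT and 69.07 and 52.64 CPM with DMSO in Dux-KO cells. For both genes the treated and control libraries were apart on each background.

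**Figure D2:**
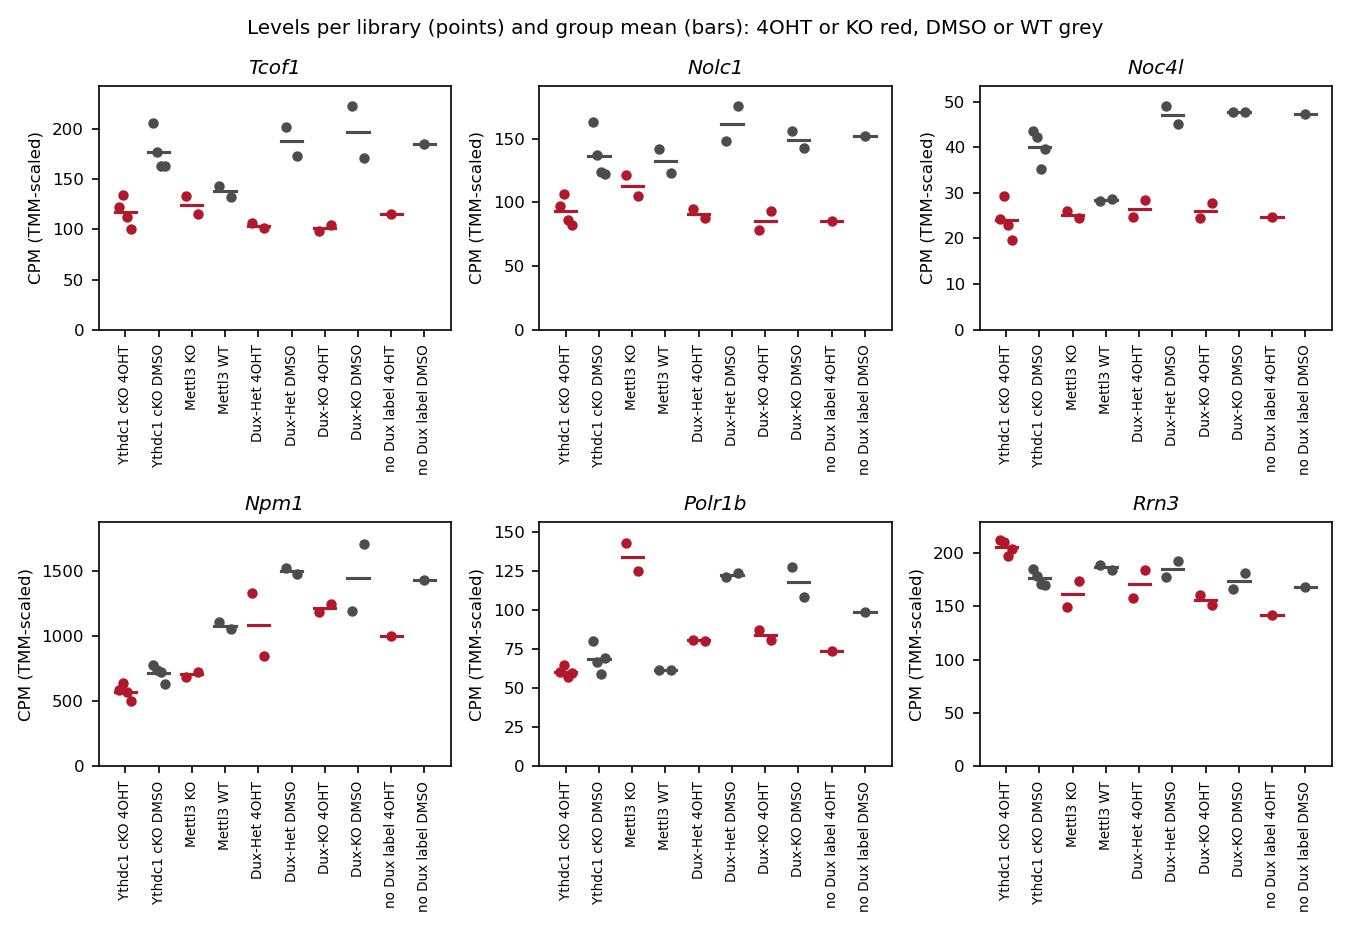
TMM-scaled level (CPM) of 6 genes in each library (points) with the group mean (horizontal lines), with 4OHT or KO in red and DMSO or WT in grey. Tcof1, Nolc1 and Noc4l are lower in every 4OHT group than in its DMSO group; Polr1b is high in Mettl3 KO (143.1 and 125.2 CPM) against WT (61.98 and 61.92 CPM).

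Each role was among the genes that fell in the pooled Dux set: 3 of 5 RNA polymerase I genes (Tcof1, Polr1b and Ubtf), 2 of 3 box C/D proteins (Fbl and Nop56), 2 of 4 box H/ACA proteins (Nhp2 and Gar1), 4 of 5 other nucleolar proteins, 7 of 10 small-subunit and 6 of 7 large-subunit factors. Fbl was at 82.55 and 83.75 CPM with 4OHT and 122.1 and 117.8 CPM with DMSO in Dux-Het cells (pooled -0.46 ± 0.078), and Nhp2 at 78.47 and 60.55 CPM with 4OHT and 114.3 and 86.87 CPM with DMSO (pooled -0.44 ± 0.10). Both were apart from their controls. Bop1 was at 56.23 and 50.17 CPM with 4OHT and 89.91 and 79.57 CPM with DMSO in Dux-Het cells (pooled -0.57 ± 0.083). Npm1 fell on average (-0.36 ± 0.12, adjusted p = 0.0361), but its libraries were scattered: 1329 and 843.7 CPM with 4OHT against 1523 and 1472 CPM with DMSO in Dux-Het cells, and 1187 and 1245 CPM with 4OHT against 1190 and 1705 CPM with DMSO in Dux-KO cells. The 10 genes that did not pass were Polr1a, Rrn3, Nop58, Dkc1, Nop10, Gnl3, Nop14, Rrp12, Nob1 and Wdr12, with log2 fold changes of -0.21 (Nob1) to 0.20 (Nop58). Leaving out 1 library at a time left 19 to 24 genes lower and 0 or 1 higher, and 18 of the 24 kept their call throughout; Npm1 and Wdr43 lost it in 8 of these 10 fits and Ubtf in 7.

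Within single backgrounds, where 2 libraries stand against 2, fewer genes passed. In Dux-Het cells 8 genes were lower (Tcof1, Nolc1, Noc4l, Rrp9, Ddx21, Bop1, Heatr1 and Polr1b) and none higher, against 4.34% lower and 4.99% higher (9.34% either way) among all entries. At an unadjusted p under 0.05, 21 of the 34 passed, against 25.2% of entries, and DESeq2 called 10, none higher. In Dux-KO cells 6 genes were lower (Tcof1, Noc4l, Nolc1, Rrp9, Ddx21 and Noc2l) and none higher, against 4.36% and 5.5% (9.86% either way); 13 passed at an unadjusted p under 0.05, against 26.6% of entries, and DESeq2 called 11, none higher. For DESeq2 the shares of all entries are not set beside the counts on these backgrounds, so those counts are not read as a trait either. The median log2 fold change of the 34 was -0.421 in Dux-Het cells and -0.241 in Dux-KO cells, against 0.0371 and 0.0533 over all entries. Every 4OHT library lay below every DMSO library for 26 genes in Dux-Het cells and 24 genes in Dux-KO cells, against 25.7% and 29.0% of all entries, and above for none in Dux-Het cells and 2 in Dux-KO cells, against 27.1% and 31.1%. These counts rest on few libraries. In Dux-Het cells 1 gene passed without 4OHT replicate 2, 3 without 4OHT replicate 1, 5 without DMSO replicate 1, 4 without DMSO replicate 2, and 5 without either Dux-KO 4OHT library, which share the estimate of the spread. In Dux-KO cells none passed by edgeR without 4OHT replicate 1 or 2, and 2 passed without DMSO replicate 1, the library that stood apart in its shares of repeats and mitochondrial counts. Without it the median was -0.289 in Dux-KO cells, 11 genes were lower in Dux-Het cells, and 23 were lower and 0 higher in the pooled set, where the median was -0.395 against -0.32 with all libraries. Without Dux-KO DMSO replicate 2, 8 passed and the median there was -0.467. No named change turned its sign in these fits.

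Whether Dux alters the response was asked by the difference of the 2 effects. Dux-KO minus Dux-Het, the difference ran between -0.0859 (Tcof1) and 0.413 (Wdr12) on the log2 scale with standard errors of 0.19 to 0.304, and no gene passed edgeR's test, nor DESeq2, nor an unadjusted p of 0.05; over all entries 0 of 29322 passed edgeR and 1.64% an unadjusted p of 0.05. The smallest unadjusted p was 0.0912. With a median standard error of 0.227, this does not show that the effects are alike. Dux-KO against Dux-Het cells differed by -0.173 (Dkc1) to 0.244 (Pes1) with 4OHT and by -0.281 (Gnl3) to 0.16 (Pes1) with DMSO. None passed edgeR or DESeq2 or an unadjusted p of 0.05 in either comparison, against 0.276% (0.00341% as higher) and 0.0341% of all entries passing edgeR and 2.98% and 2.58% passing the unadjusted p. In Dux-KO cells, where 6 genes were called lower, the markers of 2-cell-like cells were at or near 0. With 4OHT, 7 of the 9 markers had no count there, and with DMSO 8 of the 9. Any part of 2-cell-like cells in the changes of the 6 genes was not tested.

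The pair of libraries with no Dux genotype in the name had no replicate and no test. The 4OHT library was below the DMSO library for 32 of 34 genes, against 48.8% of 28441 entries, with a median log2 ratio of -0.382 over the 34 and 0.0191 over all entries. Noc4l was at 24.63 CPM (exact Poisson 95% interval 23.2 to 26.13, counting error only) with 4OHT and 47.34 CPM (45.18 to 49.57) with DMSO. Nolc1 was at 85.42 CPM with 4OHT and 152.1 CPM with DMSO. Nop58 and Polr1a were the 2 genes above 0, at log2 ratios of 0.106 and 0.0166. This pair also entered the pooled fit.

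In the Mettl3 set, 15 genes were lower and 3 higher in KO than in WT cells, against 14.9% lower and 16.4% higher among all 23977 entries (31.2% either way), with a median log2 fold change of -0.207 over the 34 and 0.0156 over all. Every KO library lay below every WT library for 25 genes and above for 3, against 33.7% and 32.6% of all entries. The summed level was 3886 and 3788 CPM in KO and 4839 and 4617 CPM in WT libraries, with no overlap. At an unadjusted p under 0.05, 20 of the 34 passed, against 41.5% of entries. The 3 that rose were Polr1b, Rrs1 and Bysl. Of the 15 that fell, 7 were small-subunit factors.

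Polr1b, the second largest subunit of RNA polymerase I, was at 143.1 and 125.2 CPM in KO and at 61.98 and 61.92 CPM in WT cells, a 2.19-fold higher level (log2 fold change 1.13 ± 0.095, adjusted p = 6.06e-05). Its partner Polr1a, the largest subunit, moved the other way: 163.0 and 158.8 CPM in KO against 210.2 and 214.4 CPM in WT (-0.38 ± 0.075, adjusted p = 0.00445). Both pairs of libraries were fully apart. Rrs1, a large-subunit assembly factor, was at 24.84 and 23.56 CPM in KO and 15.46 and 14.07 CPM in WT (0.73 ± 0.12, adjusted p = 0.002). Bysl, which encodes bystin of the small-subunit precursor, was at 63.99 and 51.59 CPM in KO and 36.94 and 39.83 CPM in WT (0.61 ± 0.12, adjusted p = 0.00517); the exons of the antisense gene Ccnd3 overlap it over 361 bases, and Ccnd3 stood at a log2 fold change of 0.03.

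Among the genes that fell, Rrp9 was at 15.86 and 15.69 CPM in KO against 28.52 and 27.1 CPM in WT (-0.80 ± 0.11, adjusted p = 0.000847). Bop1 was at 31.36 and 30.51 CPM in KO against 53.71 and 54.9 CPM in WT (-0.80 ± 0.099, adjusted p = 0.000398). Nob1 was at 32.35 and 29.39 CPM in KO against 56.22 and 50.59 CPM in WT (-0.77 ± 0.11, adjusted p = 0.00077). For each of these the WT level was 1.71 to 1.74-fold that of KO. Heatr1, a processome subunit also needed for RNA polymerase I transcription, was at 114.1 and 106.9 CPM in KO against 190.2 and 183.3 CPM in WT (-0.74 ± 0.081), and its processome partners Wdr75 (-0.57) and Wdr43 (-0.28) fell as well. Npm1 was at 685.4 and 724.3 CPM in KO against 1108 and 1051 CPM in WT, with no overlap. Of the box C/D proteins, Nop58 was at 103.8 and 107.8 CPM in KO against 134.6 and 132.2 CPM in WT (-0.32 ± 0.080, adjusted p = 0.0148). None of the 4 box H/ACA genes passed edgeR's test at this threshold; Dkc1, at 123.4 and 141.7 CPM in KO and 155.9 and 146.6 CPM in WT, had the largest difference of these (-0.17 ± 0.092, adjusted p = 0.183).

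The Mettl3 counts depend on the WT libraries. Without WT replicate 1, 0 of the 34 genes passed, and without WT replicate 2, 7 passed as lower and 1 as higher; over all entries, 351 and 1928 were called in these fits, against 7492 with all 4 libraries. Without KO replicate 1 or 2, 19 genes were lower and 3 or 4 higher. The log2 fold changes of all 18 called genes kept their sign in each of these fits, and their median over the 34 ran between -0.253 and -0.214. Mettl3 itself differed between the 2 KO libraries, and the lone WT library in such a fit is assumed to vary like the KO pair.

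**Figure D3:**
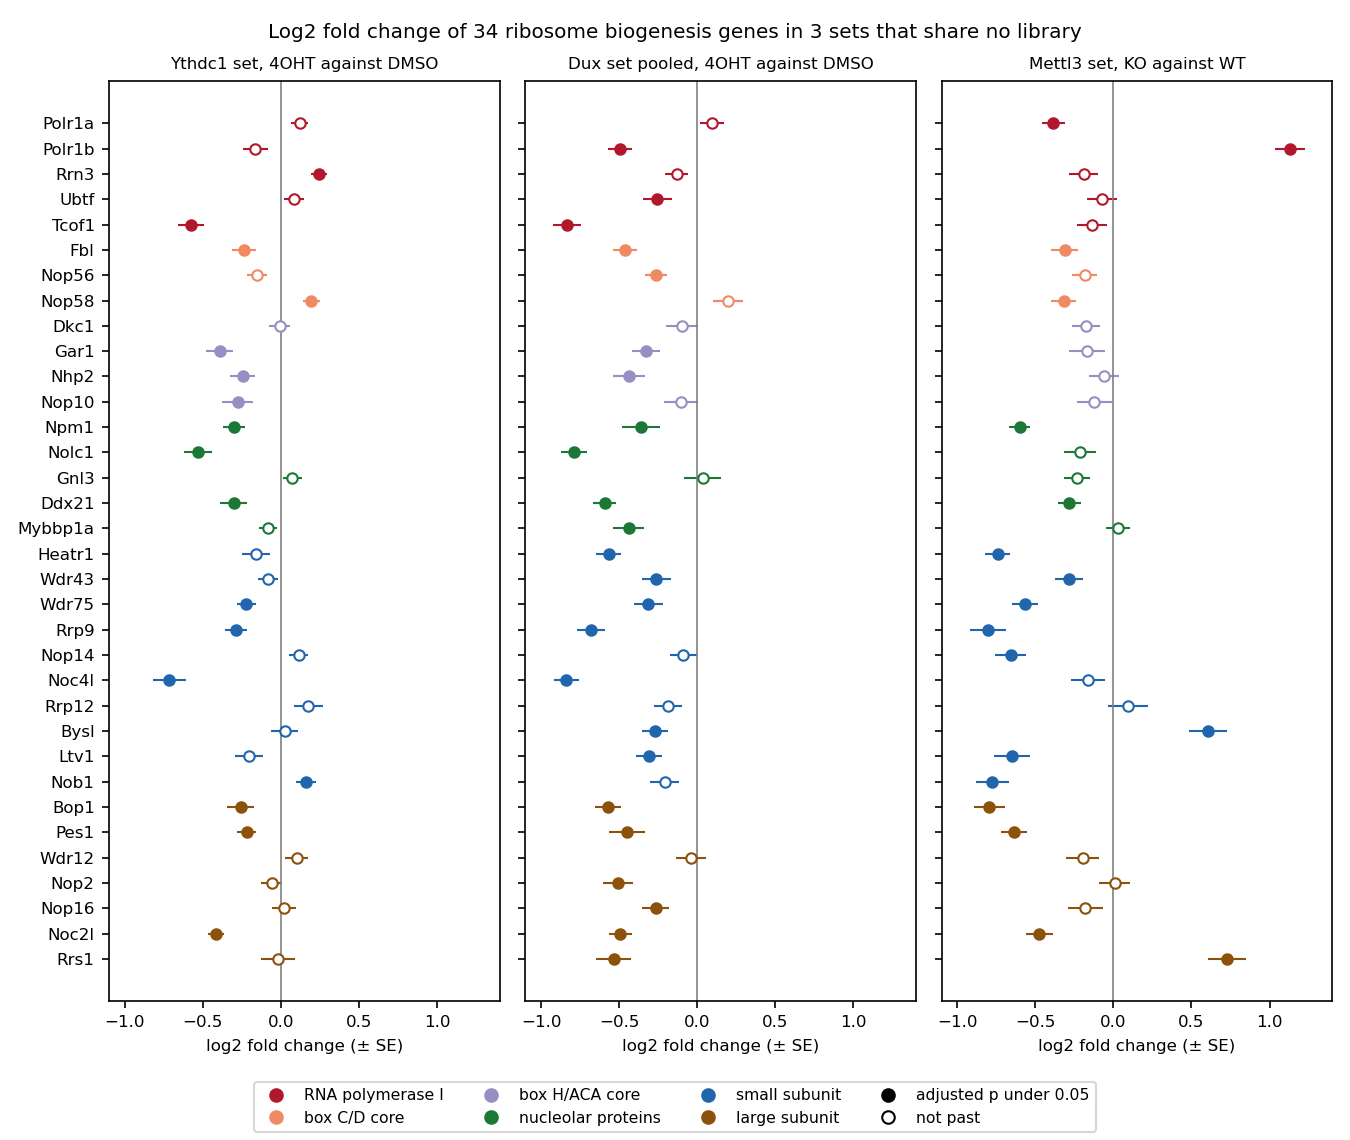
Log2 fold change ± SE of each of the 34 genes, coloured by role, in the Ythdc1 set, the pooled Dux set and the Mettl3 set; filled points passed an adjusted p of 0.05 and open points did not. Filled points to the left number 14, 24 and 15 in the 3 panels, and those to the right 3, 0 and 3.

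Set side by side, 8 genes were called lower in all 3 sets (Fbl, Npm1, Ddx21, Wdr75, Rrp9, Bop1, Pes1 and Noc2l). Not all of these calls held when single libraries were left out. Fbl and Bop1 lost theirs in some such fits of the Ythdc1 set, and Npm1 and Wdr75 in some of the pooled Dux set. The Mettl3 calls depended on the WT libraries, as given above. In none of the sets did 4 genes pass (Dkc1, Gnl3, Rrp12 and Wdr12). The shares of all entries for these 2 counts were not computed, so neither count is read as a trait of the pathway. The 13 genes lower in both the Ythdc1 set and the pooled Dux set were 92.9% of the genes lower in the first and 54.2% of those in the second; over all entries tested in both, the shares were 61.4% and 70.4%. The 8 lower in both the Ythdc1 and Mettl3 sets were 57.1% and 53.3%, against 30.9% and 45.7% for all entries. No gene was called in opposite directions in the Ythdc1 and pooled Dux sets. Over all entries this was rare too: 0.729% of those lower and 0.75% of those higher in the Ythdc1 set. Nob1 and Nop58 rose with 4OHT in the Ythdc1 set but fell in Mettl3 KO. They were 66.7% of the genes higher in the first and 13.3% of those lower in the second, against 9.93% and 14.8% over all entries. Polr1b, Bysl and Rrs1 rose in Mettl3 KO but fell with 4OHT in the pooled Dux set. They were 100% and 12.5% of the genes so called in each, against 16.3% and 13.6% over all entries. Across the 34 genes, Pearson's r of the log2 fold changes was 0.79 between the Ythdc1 and pooled Dux sets (0.77 across 24138 entries) and 0.11 between the Ythdc1 and Mettl3 sets (0.33 across all entries); genes within a set share libraries and are not independent, so these are descriptions.

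The 4OHT effect in the Ythdc1 set minus the KO effect in the Mettl3 set was tested over 12 libraries. The 2 effects share no library, and only the first is an effect of 4OHT. Loss of the reader against loss of the writer therefore cannot be told apart from 4OHT or from the set. The difference passed for 17 of 34 genes, 13 positive and 4 negative, against 13.7% and 11.6% of all 28260 entries (25.3% either way). Polr1b had the largest difference (-1.25 ± 0.14, adjusted p = 1.72e-06), followed by Nob1 (0.98 ± 0.12, adjusted p = 5.00e-06) and Nop14 (0.81 ± 0.11, adjusted p = 1.59e-05). The other negative differences were in Rrs1, Bysl and Noc4l, and the other positive ones in Polr1a, Rrn3, Nop58, Npm1, Gnl3, Heatr1, Wdr75, Rrp9, Ltv1, Bop1 and Pes1. Of the 10 small-subunit factors 8 differed, 6 positive and 2 negative, whereas none of the 4 box H/ACA genes passed. Of the 17, 11 kept their call in each fit that left out 1 library; for Npm1 the call was lost in 10 of 12 such fits, and for Noc4l in 7. Without Mettl3 WT replicate 1, 9 genes were positive and 2 negative, and 2 were negative without Mettl3 KO replicate 1; the median difference, 0.204 with all libraries and 0.0544 over all entries, was 0.103 without that WT library and 0.126 without DMSO replicate 4.

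**Figure D4:**
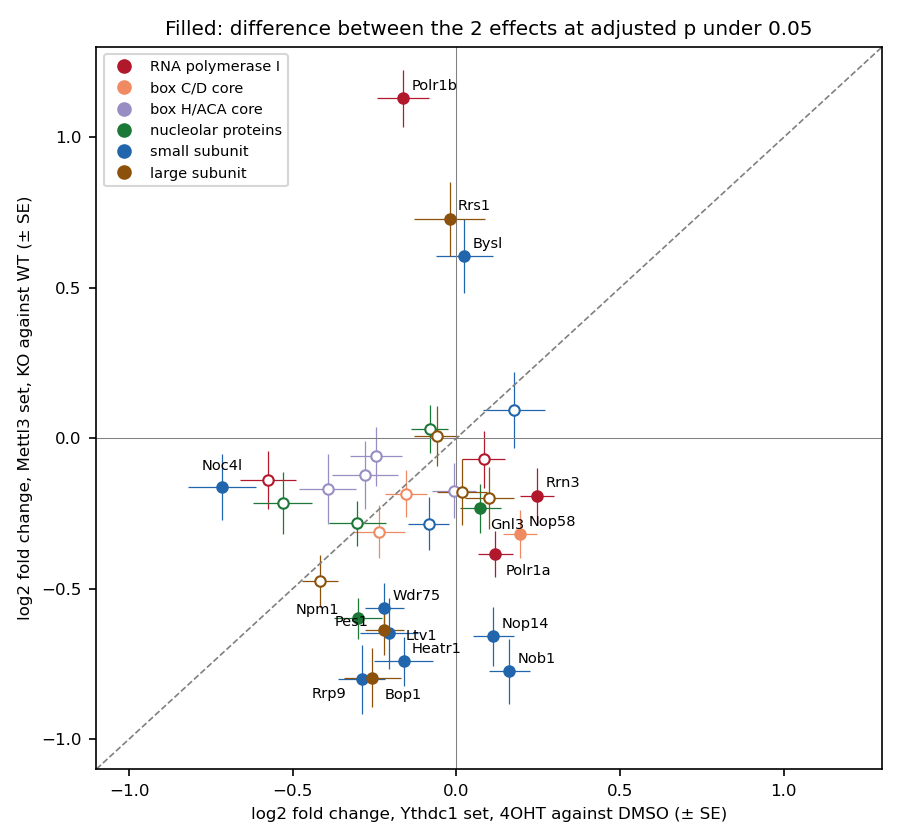
Log2 fold change ± SE of the 34 genes in the Ythdc1 set (horizontal axis) and in the Mettl3 set (vertical axis), coloured by role; the dashed line marks equal effects, and filled points are genes whose difference between the 2 effects passed an adjusted p of 0.05. Polr1b, Rrs1 and Bysl stand high above the line, and Nob1 and Nop14 lie furthest below it.

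The size of the 4OHT effect in the Ythdc1 set was also set against the mean of its size in Dux-Het and Dux-KO cells. The difference was positive for 30 of 34 genes, that is, less lowering in the Ythdc1 set, or a rise there as for Rrn3. Its median was 0.253 over the 34 genes. Over all entries 47.7% were negative and the median was 0.0198. No single gene passed edgeR's adjusted test (smallest adjusted p = 0.0732, Rrn3), against 0.953% of all entries as positive and 0.568% as negative, 1.52% in all. At an unadjusted p under 0.05, 15 genes passed, against 15.3% of entries, and DESeq2 called 3. Without DMSO replicate 1 of the Ythdc1 set 4 genes passed, and without Dux-KO DMSO replicate 2, 5 passed.

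Of 125 further genes of the pathway, taken as a list of polymerase I, small-subunit, large-subunit and other factors, 39 were lower and 13 higher with 4OHT in the Ythdc1 set, 49 lower and 7 higher in Mettl3 KO, and 69 lower and 5 higher with 4OHT in the pooled Dux set. All 125 were tested in each, with median log2 fold changes of -0.0867, -0.226 and -0.293. Over all entries tested, 21.4% were lower and 23.7% higher in the Ythdc1 set (median 0.0158), 14.9% and 16.4% in Mettl3 KO (median 0.0156), and 16.2% and 20.2% in the pooled Dux set (median 0.0523). Counted in either direction, the calls of the wider list in the Ythdc1 set were near the share over all entries, 45.1%. In the Ythdc1 set the largest falls were in Imp3 (-0.86 ± 0.13), a partner of the processome snoRNA, Lyar (-0.73 ± 0.090), Utp6 (-0.57 ± 0.077) and Dimt1 (-0.53 ± 0.089), an rRNA dimethylase. The largest rises were in Riok3 (0.52 ± 0.067), Mak16 (0.52 ± 0.075), Utp20 (0.52 ± 0.078) and Ddx55 (0.49 ± 0.10). In the pooled Dux set Lyar (-0.91 ± 0.078), Ruvbl1 (-0.73 ± 0.075), Eif6 (-0.71 ± 0.097), which keeps the large subunit from joining too early, and Utp3 (-0.68 ± 0.092) fell most. Riok3 (0.36 ± 0.071) and Mak16 (0.24 ± 0.083) were again among those that rose, with the polymerase I factors Ttf1 (0.35 ± 0.098) and Taf1b (0.29 ± 0.094). In Mettl3 KO the largest falls were in Nol9 (-1.26 ± 0.091), a polynucleotide kinase of rRNA processing, Ebna1bp2 (-1.13 ± 0.10), Ddx49 (-1.12 ± 0.11) and Naf1 (-1.103 ± 0.11), an assembly factor of box H/ACA particles. Abt1 (0.79 ± 0.12), Senp3 (0.78 ± 0.10), Polr1d (0.69 ± 0.11) and Utp14a (0.60 ± 0.086) rose. Among the wider list, 36 genes were lower in both sets of 4OHT libraries, 92.3% of those in the Ythdc1 set and 52.2% of those in the pooled Dux set, against 61.4% and 70.4% over all entries.

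Myc and its relatives bind E-boxes at many genes of this pathway and are known to drive them. Myc was at 49.35, 50.92, 49.31 and 44.79 CPM with 4OHT and at 38.81, 22.75, 16 and 20.91 CPM with DMSO in the Ythdc1 set. It rose (1.00 ± 0.18, adjusted p = 0.000217), with its highest control in DMSO replicate 1, the library that was also high for the 34 genes. In Mettl3 KO cells Myc fell, with 12.77 and 8.983 CPM against 22.26 and 19.68 CPM in WT (-0.93 ± 0.18, adjusted p = 0.00364). In the pooled Dux set its log2 fold change was -0.28 ± 0.13 (adjusted p = 0.0957). The difference between the Ythdc1 set and the Dux-Het and Dux-KO mean passed the test for Myc (1.33 ± 0.27, adjusted p = 0.0166). Mycn, the more abundant relative here, fell with 4OHT in the Ythdc1 set (-0.38) and the pooled Dux set (-0.56) and rose in Mettl3 KO (0.36). Mxd4, a member of the antagonist Mxd family, rose in all 3 sets (1.85, 1.63 and 0.90 in the Ythdc1, pooled Dux and Mettl3 sets). Its relatives did not all do so. Mxd1 was at 10.53 to 13.89 CPM with 4OHT and 6.915 to 9.184 CPM with DMSO in the Ythdc1 set. In Mettl3 KO, Mxd1 was at 5.087 and 3.88 CPM, against 8.617 and 8.387 CPM in WT. Mxi1 was at 14.18 to 20.3 CPM with 4OHT and 21.9 to 30.6 CPM with DMSO in the Ythdc1 set. Of the 10 Myc-family genes examined, 4 were higher and 4 lower in the Ythdc1 set, against 23.7% and 21.4% of all entries. In Mettl3 KO 4 were higher and 2 lower, against 16.4% and 14.9% of all entries. In the pooled Dux set 2 were higher and 1 lower, against 20.2% and 16.2%. Any part of the Myc family in the changes of the 34 genes was not tested.

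**Figure D5:**
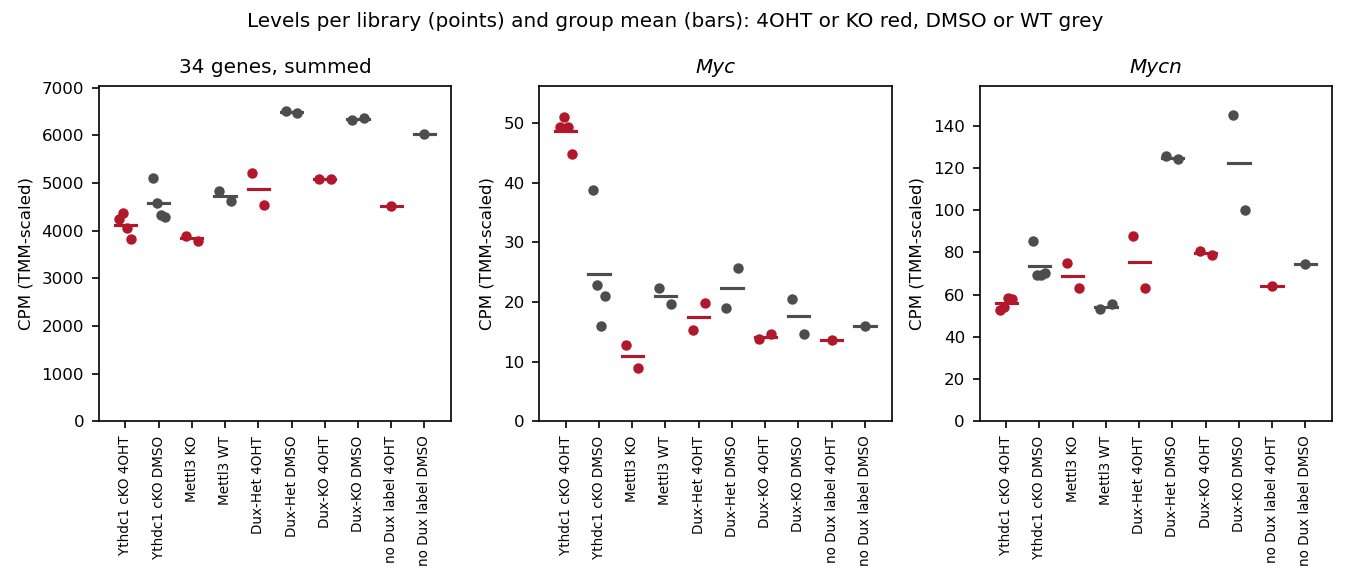
Summed level of the 34 genes, and levels of Myc and Mycn, in each library (points; TMM-scaled CPM) with the group mean (horizontal lines), with 4OHT or KO in red and DMSO or WT in grey. The sum is lower in 4OHT than in DMSO libraries on all Dux backgrounds, whereas Myc is at 44.79 to 50.92 CPM with 4OHT in the Ythdc1 set and at most 38.81 CPM in every other library.

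Among the few p53 genes examined, Mdm2 rose to 312.3 to 366.5 CPM with 4OHT, against 81.58 to 116.9 CPM with DMSO, in the Ythdc1 set, and Cdkn1a to 140.3 to 172.5 CPM, against 69.8 to 77.32 CPM. Mdm2 encodes the ligase that degrades p53, and ribosomal proteins left free when assembly stalls are known to bind it. Trp53, which encodes p53, was at a log2 fold change of -0.05 there and did not pass. In the pooled Dux set Mdm2 (2.45 ± 0.12) and Cdkn1a (1.68 ± 0.092) rose as well, and in Mettl3 KO Mdm2 rose (0.55 ± 0.095) and Trp53 fell (-1.001 ± 0.089). The part of these genes in the results above was not tested.

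Host introns and exons of Nop56, Nop58, Dkc1, Gnl3 and Wdr43 carry 16 annotated snoRNA entries. In the Ythdc1 set 1 of the 16 was lower (Gm23187 in Nop56, -0.50) and none higher by edgeR; in the pooled Dux set 1 was lower and 1 higher (Snord19 in Gnl3, 0.79). Of the 13 tested in the Mettl3 set, none passed edgeR. Reads of the exons around a snoRNA may be counted with it. Across the 34 genes, Spearman's rho of the log2 fold change with the level in Ythdc1 DMSO libraries was 0.04, -0.15 and -0.01, and with exon length 0.31, 0.08 and 0.10, in the Ythdc1, Mettl3 and pooled Dux sets, over 34 genes each and given as descriptions.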

How the data were processed

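The authors deposited a table of raw counts per gene and repeat family for all 22 libraries, 44749 entries in all, and a normalized table of non-negative signal values. The deposited signal was the count divided by 1 factor per library (largest relative deviation 5.45e-15 over 34971 complete lines), and it served only as an alternative scaling. Per the submitters' processing notes, bcl2fastq, STAR 2.7, Bowtie2, RSEM and the mm10 build were used; how reads were counted, and whether by strand, no source used here states. In the Dux set 2 label fields are shifted by 1 sample against the titles, so titles, which match the columns, gave the groups.

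Counts were tested with edgeR 4.0.16 in R 4.3.3 (quasi-likelihood test, filterByExpr by group, TMM scaling). Benjamini-Hochberg adjustment ran over all entries tested, with a threshold of 0.05. Each set had its own fit, and the pooled Dux comparison had a further fit with background as a term. Differences between sets came from joint fits over the groups compared. An SE is the log2 fold change divided by the square root of F. Levels are CPM (counts scaled to library size) with 1 TMM scaling over all 22 libraries; levels per kilobase use GENCODE vM21 exons (GRCm38). Alternatives were RLE scaling, the authors' factors, no filter, gene entries alone, a replicate block, DESeq2 1.42.0 and each library left out. Scripts were tested on simulated data.

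The 34 genes and all lists were chosen with earlier results of these data known. Values per library are given for up to 4 called genes with the largest change in each direction, plus 1 gene of each role without one. Further pathway genes were named by the same rule. None of 6 ribosomal RNA entries sought was in the table. Intervals cover counting error only.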

Additional observations from a re-analysis of the deposited data

Results flagged for a closer look

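In DMSO libraries of the Ythdc1 set, Nop56 was at 231.2 CPM in replicate 1 and between 206.0 and 207.5 CPM in the other 3, so 1 library lay far from the rest. Among 68 such group checks, chance alone would mark about 1 in 20.

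The effect of 4OHT in the Ythdc1 set and the effect of Mettl3 KO differed, by a test of the difference itself (edgeR, adjusted p under 0.05), for 17 genes. The Ythdc1 effect minus the Mettl3 effect, on the log2 scale, was below 0 for 4 genes: -1.25 for Polr1b, -0.707 for Rrs1, -0.539 for Bysl and -0.51 for Noc4l. It was 0.546 for Polr1a, 0.48 for Rrn3, 0.557 for Nop58, 0.341 for Npm1 and 0.348 for Gnl3. Among subunit assembly factors it was 0.623 for Heatr1, 0.387 for Wdr75, 0.555 for Rrp9, 0.815 for Nop14, 0.487 for Ltv1, 0.979 for Nob1, 0.582 for Bop1 and 0.46 for Pes1.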

How the results depend on the processing

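No called result changed direction under the alternatives run. The median log2 fold change of the 34 genes for Dux-KO against Dux-Het, with no gene called, was -0.00818 with 4OHT and -0.0794 with DMSO and took either sign as libraries were left out (-0.0175 to 0.0315 and -0.153 to 0.016). With the replicate block, 5 genes were higher in the Ythdc1 set and 18 lower, 13 were lower in Dux-Het cells (8 without the block), 10 in Dux-KO cells (6 without it) and 24 in the pooled Dux set; the Ythdc1 effect minus the Dux mean then passed for 1 gene and 808 entries, and the Mettl3 counts stayed at 3 higher and 15 lower. Without a filter on low counts, 14 genes were lower in Dux-Het cells, 4319 entries were called there and 4701 in Dux-KO cells. The same setting called 272 and 124 entries between Dux-KO and Dux-Het with 4OHT and with DMSO, 28 for the difference of the 2 effects, and 3 genes and 1435 entries for the Ythdc1 effect minus the Dux mean. DESeq2 called 11 genes lower in Dux-KO cells, 17 entries between Dux-KO and Dux-Het with DMSO, 2 for the difference of effects, and 3 genes and 1054 entries for the Ythdc1 effect minus the Dux mean. The cause of these shifts was not tested.

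Leaving out each library in turn gave 2 to 5 genes higher in the Ythdc1 set, and 0 to 4 higher and 0 to 19 lower with 351 to 9718 entries called in the Mettl3 set. It gave 1 to 11 lower in Dux-Het cells (1254 to 2957 entries), 0 to 8 lower in Dux-KO cells (423 to 3645 entries) and 0 to 1 higher in the pooled set. Between Dux-KO and Dux-Het, 30 to 97 entries were called with 4OHT, 0 to 15 with DMSO and 0 to 1 for the difference of effects. The Ythdc1 effect minus the Mettl3 effect passed for 9 to 14 genes above 0 and 2 to 5 below 0, and the Ythdc1 effect minus the Dux mean for 0 to 5 genes and 171 to 1144 entries.

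Same-numbered 4OHT and DMSO libraries of the Ythdc1 set deviated together with correlations of 0.307, 0.084, 0.312 and 0.313. Each library correlated best with its own number, a hint of pairing from the data and not the design. For 4OHT library 2 this was nearly a tie, at 0.084 with DMSO library 2 and 0.078 with DMSO library 1. The columns tie no number to an ESC line or a shared culture. For that reason the numbers were not taken as pairing in the main fits, which may leave a real pairing unused. The correlation was 0.236 in Dux-KO cells, 0.54 in Dux-Het cells and 0.061 in the Mettl3 set; with 2 numbers each, and no label that ties a number to a shared culture or day, these were not taken as pairing either.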
